A study of Mus musculus with 22 samples.

Results

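Cluster 11 of the Day 5 whole-cell dataset is a group of oligodendrocytes that the study's own clustering set apart, and it was taken here exactly as the cluster number deposited for each cell. It held 1378 of 54890 whole cells. The cells came from the hypothalamus of 12 male ob/ob mice, which lack leptin and are obese and diabetic, at 11 weeks of age. Into the cerebral ventricle (icv), the 6 FGF1 mice were given 3 µg of fibroblast growth factor 1 once, and the 6 controls received an icv injection of PBS and were pair-fed (PF) to the intake of the FGF1 mice. All were killed 5 days later, and each library was 1 mouse, so a mouse was the replicate throughout. No lean or freely fed mice were used in these comparisons, so every value describes the leptin-deficient state. Nuclei from separate ob/ob mice on the same 2 treatments, 3 FGF1 and 3 PF mice on Day 1 and 2 and 2 mice on Day 5, were used to look up the same genes in oligodendrocytes that the whole-cell clustering had not used.

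Oligodendrocytes make the myelin that insulates axons. They arise from oligodendrocyte precursor cells (OPCs), pass through committed precursors (COPs) and newly formed oligodendrocytes (NFOLs), then build compact myelin with large amounts of a few membrane proteins and of cholesterol, and finally settle into a mature state that maintains it. Precursors and new oligodendrocytes persist in the adult hypothalamus.

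Cluster 11 was set beside cluster 2, the largest oligodendrocyte cluster, with 7409 cells, beside cluster 12 with 1175 cells, and beside cluster 9 with 1747 cells, which sat earlier in the lineage by the marker genes given below. A cell of cluster 11 had a median of 1901 unique molecular identifiers (UMIs), against 1299 in cluster 2, 1881 in cluster 9 and 1568 in cluster 12, and a median of 11.0% mitochondrial UMIs against 12.6% in cluster 2. Summed over the cells of a mouse, cluster 11 held 126322 to 1247096 UMIs in FGF1 mice and 28725 to 93668 in PF mice, so that 1 UMI stood for 0.802 to 7.92 CPM (UMIs scaled to the size of the library) in the first and for 10.7 to 34.8 CPM in the second. Low values in PF mice are therefore coarse. FGF1 mouse 10 supplied 487 cells, 35.3% of the cluster. Of the 1378 cells, 85 carried a cell barcode that also occurred in another library, and 2 barcodes occurred in more than 1 library within the cluster. Across the whole-cell dataset 1791 barcodes occurred in more than 1 library.

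FGF1 mice supplied 1212 of the 1378 cells (88.0%). The number of cluster 11 cells per mouse had a lowest, median and highest value of 89, 160 and 487 in FGF1 mice and of 17, 22.5 and 56 in PF mice, with no overlap. As a share of all whole cells of a mouse, cluster 11 made up 1.50%, 3.70% and 10.4% in FGF1 mice and 0.252%, 0.467% and 1.74% in PF mice. These ranges overlapped through 1 PF mouse, number 29, although FGF1 was higher in 6 of the 6 batches, each of which held 1 mouse of either treatment. Among the cells of clusters 2, 11 and 12, the share of cluster 11 was 11.3%, 35.6% and 81.3% in FGF1 mice and 0.964%, 2.46% and 7.62% in PF mice, again with no overlap. The same 3 clusters together were a smaller part of all cells in FGF1 mice, at 7.70%, 13.1% and 16.0%, than in PF mice, at 13.9%, 23.1% and 26.5%, with ranges that overlapped. Cluster 2 made up 1.99%, 6.84% and 11.9% of the cells of FGF1 mice and 11.5%, 19.8% and 22.0% of those of PF mice. Cluster 9 differed like cluster 11, with 3.64%, 6.93% and 11.6% against 0.290%, 0.585% and 0.917%. All these shares are descriptions without a test. The cells were clustered on the same counts, and genes that separate cluster 11 from cluster 2 differed between the treatments inside it, as given below, so a changed number of such cells and cells that changed their cluster cannot be told apart.

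**Figure D1:**
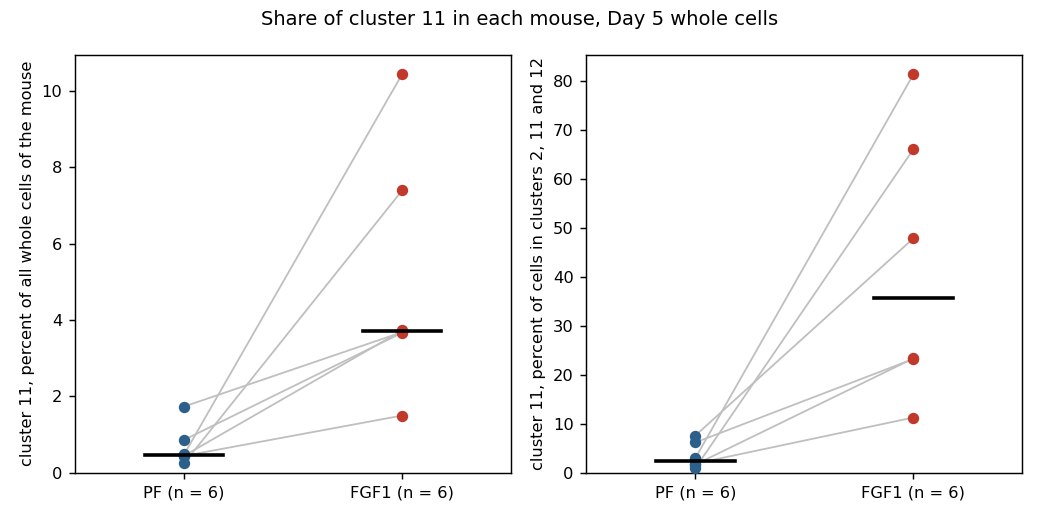
Share of cluster 11 in each mouse, as a percent of all its whole cells (left) and of its cells in clusters 2, 11 and 12 (right). Each point is a mouse, black bars are medians of 6 mice, and grey lines join the FGF1 and the PF mouse of a batch; FGF1 is the higher end of every line.

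The name oligodendrocyte held against the 5 marker genes given for the cluster, all of which were high in every mouse. Mal, a lipid-raft protein of compact myelin, was at 3665, 4537 and 6023 CPM (lowest, median and highest of 12 mice), and Cldn11, which seals the myelin lamellae with tight junctions, was at 4843, 6189 and 7446 CPM. Mog, a protein of the outermost myelin surface, was at 1415, 1975 and 2485 CPM. Opalin, a glycoprotein of myelin paranodes, reached 897, 1347 and 1819 CPM, and Tspan2, a tetraspanin of myelin, reached 1619, 2150 and 2782 CPM. The given markers were higher in cluster 11 than in cluster 2 in all 12 mice for 5 of 5 genes. Mean Cldn11 was 6210 CPM in cluster 11, 2930 CPM in cluster 2, 4579 CPM in cluster 12 and 1474 CPM in cluster 9. Mean Mal ran from 4833 CPM in cluster 11 through 4249 CPM in cluster 12 and 2623 CPM in cluster 2 to 54.8 CPM in cluster 9, and the ranges of clusters 11 and 12 overlapped.

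Several defining genes of the earlier stages were near their floor. Pdgfra, the growth factor receptor that marks OPCs, gave 23 UMIs in the whole cluster, and Cspg4, which encodes the NG2 proteoglycan of OPCs, gave 6. The COP genes Neu4 and Bmp4 gave 9 and 8 UMIs. Gpr17, a receptor that peaks in COPs, had a mean of 60.6 CPM in cluster 11, 12.8 CPM in cluster 2 and 2257 CPM in cluster 9. Its level in cluster 11 was 9.20, 32.7 and 64.7 CPM in FGF1 mice (58 UMIs in all) and 44.9, 83.1 and 135 CPM in PF mice (31 UMIs), while in cluster 2 it was 8.04, 14.9 and 31.2 CPM and 5.12, 8.14 and 12.4 CPM. The ranges overlapped in both clusters. Among NFOL genes, Enpp6 averaged 31.6 CPM against 654 CPM in cluster 9, and Tcf7l2 averaged 60.7 CPM against 852 CPM. The whole lists were not absent: the 14 NFOL genes summed to 2056, 2491 and 3627 CPM in cluster 11 and 1710, 1930 and 2122 CPM in cluster 2, and the 15 OPC genes to 818, 1206 and 1896 CPM and 953, 1238 and 1684 CPM. Slc12a2 and 1700047M11Rik of the NFOL list and Olig1 of the OPC list were higher than in cluster 2 in every mouse. Among late genes, Apod had a mean of 886 CPM in cluster 11 and 796 CPM in cluster 2, whereas Apoe (491 against 1288 CPM) and Ptgds (7403 against 10720 CPM) were lower in cluster 11 in every mouse. Car2, carbonic anhydrase 2, had similar means of 1707 and 1556 CPM, but the order of the clusters differed by treatment: cluster 11 was higher in each FGF1 mouse and lower in each PF mouse but number 35. Klk6, a protease of some mature oligodendrocytes, was low in both, at 37.5 and 27.5 CPM. Markers of other cells were low but not absent. The summed level of 10 microglia and macrophage genes was 119 to 413 CPM in FGF1 and 36.9 to 223 CPM in PF mice, that of 10 endothelial and mural genes was at most 213 CPM, that of 12 neuron genes was 288 to 1268 CPM, and that of 10 tanycyte and ependymal genes was at most 172 CPM. The 7 vascular leptomeningeal genes stayed at or below 21.6 CPM, and 15 cell cycle genes at or below 160 CPM.

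**Figure D2:**
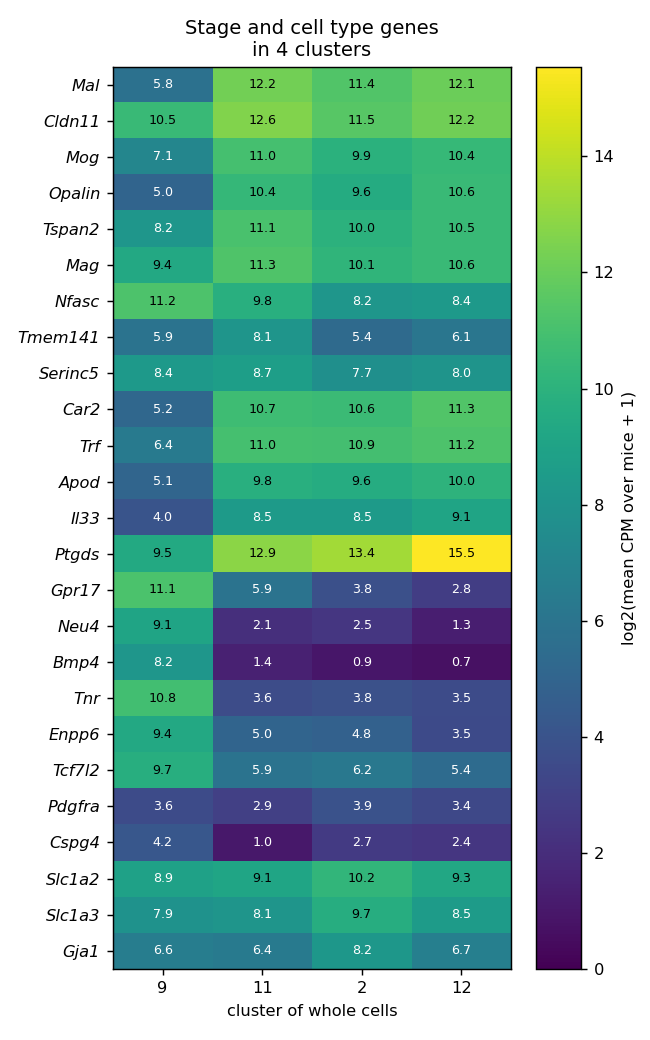
Mean level of stage and cell type genes in clusters 9, 11, 2 and 12, as log2(CPM + 1) of the mean over 12 mice (10 in cluster 12), printed in each tile and shaded from dark (low) to yellow (high). The 5 marker genes are high in cluster 11, COP and NFOL genes such as Gpr17 and Enpp6 are high in cluster 9, and Ptgds is highest in cluster 12.

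The comparison with cluster 2 asks what distinguishes the 2 kinds of myelinating cells within a mouse. Genes were ranked by the mean over 12 mice of the difference in log2 CPM between the clusters, among genes with a mean of at least 100 CPM in the higher cluster and the same sign in every mouse. Of 1614 genes at that level, 111 were higher in cluster 11 in every mouse (6.88%) and 134 were lower in every mouse (8.3%). Since the clustering was made from these genes, the differences define the cluster and carry no test.

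The genes higher in cluster 11 were led by Tmem141, a small membrane protein and a marker of myelin-forming oligodendrocytes, with a log2 difference of 2.48 and means of 281 and 40.1 CPM. Nfasc, which encodes the neurofascin of paranodes and nodes, differed by 1.50 (900 against 288 CPM). Mag, an adhesion molecule on the innermost myelin membrane, differed by 1.01 (2449 against 1132 CPM). Igsf8 (1.72), an immunoglobulin protein that binds tetraspanins, Ank3 (1.02), the anchor protein ankyrin G, and Kcna2 (1.01), a potassium channel subunit, belonged to the same 25. Sterol and lipid synthesis was represented by Cyp51 (1.18), lanosterol demethylase, Hmgcs1 (1.09), which makes the precursor of mevalonate, and Elovl6 (1.03), a fatty acid elongase. Sirt2 (1.10), a deacetylase abundant in myelin, Lpar1 (1.10), a lysophosphatidic acid receptor, and Adamts4 (1.204), a protease that marks mature oligodendrocytes, completed the named part of the list. By list, 15 of 24 compact myelin genes were higher in every mouse and 0 were lower, 5 of 9 myelin-forming genes that reached 100 CPM were higher (Tmem141, Serinc5, Opalin, Mobp and Slc44a1), and 4 of 13 sterol and fatty acid genes were higher. Of 15 mature genes, 1 was higher (Pdlim2) and 2 were lower (Apoe and Ptgds).

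Genes of astrocytes were prominent among those lower in cluster 11, with 6 of the 10 genes of the astrocyte list among the leading 25. Slc7a11, a cystine transporter, led with a log2 difference of -2.51 (22.4 against 120 CPM), and Fgfr3, an FGF receptor of astrocytes, came after Gm3764 (-2.39) with -2.10 (35.2 against 127 CPM). Gja1 (-1.77), the astrocyte connexin 43, Ntsr2 (-1.72), Slc6a11 (-1.65), a GABA transporter, Agt (-1.60), angiotensinogen, Slc1a3 (-1.59), a glutamate transporter, Slc4a4 (-1.57) and Atp1b2 (-1.54) stood among the lowest 25, as did S100a6 (-1.65). Each of the 8 astrocyte list genes that reached 100 CPM was lower in every mouse. Their list of 10 genes summed to 948, 1393 and 2104 CPM in cluster 11 of FGF1 mice and 1396, 2098 and 2757 CPM in that of PF mice, and to 3213, 4254 and 5471 CPM and 3205, 4497 and 6047 CPM in cluster 2. No gene of that list was at 0 in either cluster. Whether astrocyte RNA, free or from joined cells, makes up this difference was not tested. The difference was with cluster 2. Against cluster 12, 0 of 8 astrocyte list genes were lower in every mouse, with a median log2 difference of -0.11. Against cluster 9, 0 of 5 were lower, with a median of 0.24. Ribosomal protein genes were lower for 46 of 81 members and higher for 0, with a median log2 difference of -0.33, and 6 of 13 mitochondrially encoded genes were lower, where the median of all 1614 genes was -0.05. Ribosomal protein genes were lower in every mouse for 4 of 81 members against cluster 12 and for 20 of 81 against cluster 9, with medians of -0.24 in both. Mitochondrially encoded genes were lower for 0 of 12 in either comparison. Against cluster 9, 4 of the 12 were higher in every mouse, with a median of 0.47. Against cluster 12, 0 were higher, with a median of -0.14.

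**Figure D3:**
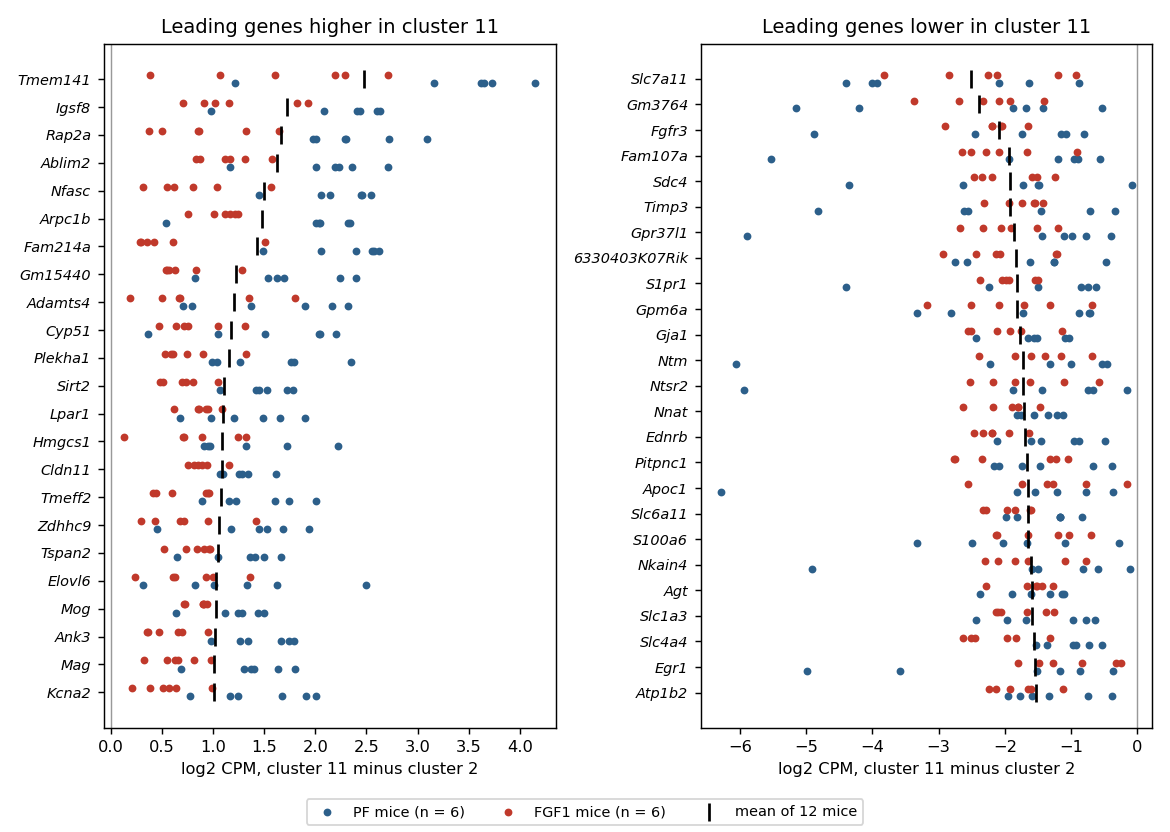
Difference in log2 CPM between cluster 11 and cluster 2 within each mouse for the leading genes reported here that were higher (left) and lower (right) in cluster 11, with FGF1 mice in red, PF mice in blue and the mean of 12 mice as a black bar. All points lie on one side of 0, and for the genes on the left the PF points lie mostly farther from 0.

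For all 25 leading genes higher in cluster 11, the mean difference from cluster 2 was smaller in the FGF1 mice than in the PF mice. Nfasc differed by 0.82 in FGF1 mice and 2.18 in PF mice, Fam214a by 0.58 and 2.28, and Tmem141 by 1.71 and 3.25. Among the 25 genes lower in cluster 11 the difference was smaller in FGF1 mice for 9. Median UMIs per cell in cluster 11 also differed, with 1191, 1487 and 2395 (lowest, median and highest of 6 mice) in FGF1 mice and 1408, 2360 and 2652 in PF mice, and their part in these differences was not tested. With every cell thinned to 800 UMIs, 33 of the 50 leading genes remained.

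Against cluster 9, cluster 11 was higher in every mouse for 328 of 1969 genes (16.7%) and lower for 354 (18%). The higher genes were led by Mal (log2 difference 6.64), Ermn (6.25), a cytoskeletal protein of myelinating cells, Car2 (5.87), Grb14 (5.66), Opalin (5.59), Pdlim2 (5.57), Cntn2 (5.52) and Apod (5.27). The lower genes were led by Tnr (-7.16; 11.2 against 1799 CPM), the matrix protein tenascin R, Neu4 (-6.25), a sialidase, Opcml (-5.96), Sox4 (-5.49), a transcription factor of immature cells, Bmp4 (-5.42), Sox6 (-5.42), Gpr17 (-5.35) and Vcan (-5.23). All 11 COP genes that reached 100 CPM were lower, and 7 of 12 NFOL genes were lower and 3 higher. A few myelin genes went the other way, since Nfasc and Gjc3 were lower in cluster 11 than in cluster 9.

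Cluster 12 was nearer. In the 10 mice with at least 10 cells in both clusters, 58 of 1598 genes were higher (3.63%) and 46 lower (2.88%) in cluster 11 in every mouse. Ptgds, which makes prostaglandin D2 and rises late in the lineage, stood apart with a log2 difference of -2.65 (7764 against 47919 CPM). Mgll (1.93), the lipase that breaks down the endocannabinoid 2-arachidonoylglycerol, Marcksl1 (1.92), Micall1 (1.87), Tspan15 (1.75), Nfasc (1.38) and Ddit4 (1.23) led the genes higher in cluster 11. Of the 5 given markers, 1 was higher than in cluster 12 in every mouse, Tspan2.

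The central comparison of the study is FGF1 against PF, and within cluster 11 it asks whether the cells of treated and control mice that the clustering put together differ. Counts were summed per mouse and compared with edgeR's quasi-likelihood test with Benjamini-Hochberg adjustment over 1613 genes. At an adjusted p below 0.05, 107 genes differed (6.63%), 43 of them higher (2.67%) and 64 lower (3.97%) in FGF1 mice. Of the 107, 23 were also higher and 4 lower in cluster 11 than in cluster 2 in every mouse. These are called border genes here, since they helped to set which cells were in the cluster, and their changes are given as values without a test, although they are part of the counts. The label rests on cluster 2 alone. Other genes separated cluster 11 from cluster 12 in every mouse compared, among them Mgll, Ddit4, Car2, Stmn1, Krtcap2 and Hsp90aa1. Their changes within cluster 11 are likewise given without a test. Trf, Etv1, Stmn1, Stmn4, Tuba1a and Marcks separated it from cluster 9 in every mouse, and their changes are also given without a test. Other genes that did so kept their test, which is a limit on those tests. The 6 FGF1 and 6 PF mice did not overlap for 38 of the 1613 genes (2.36%). The 107 genes kept their direction in every fit without a single mouse that tested them, and 32 of them, 11 higher and 21 lower, passed in each of the 12 fits. The count itself moved more. It was 63 without FGF1 mouse 10, 46 without PF mouse 25, 69 without PF mouse 22, 69 without PF mouse 29 and 164 without PF mouse 35. It was 44 with each cell thinned to 800 UMIs and 199 without a filter on low counts. Median UMIs per cell of the cluster, 1487 in FGF1 and 2360 in PF mice, moved with the treatment. The mitochondrial share of UMIs in cluster 11 moved too, with medians of 11.0% in FGF1 and 8.90% in PF mice. It was higher in FGF1 in 5 of 6 batches, and its part in the changes was not tested.

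Among genes higher after FGF1, Il33 changed most. It encodes interleukin 33, an alarmin held in the nucleus and found in mature oligodendrocytes. Its level was 356, 601 and 717 CPM (lowest, median, highest) in FGF1 mice and 56.2, 165 and 272 CPM in PF mice, without overlap. The log2 fold change (FGF1 over PF) was 1.95 ± 0.27 (SE), with an adjusted p of 0.000114 by edgeR's quasi-likelihood test, and Il33 passed in each of the 12 fits without a mouse. S100a6, a calcium-binding protein, was at 227, 271 and 356 CPM against 33.7, 77.0 and 179 CPM, again without overlap. Its log2 fold change was 1.63 ± 0.26, given without a test since it is a border gene. The astrocyte list summed to a higher level in FGF1 in 2 of 6 batches and the microglia and macrophage list in 6 of 6, with overlapping ranges for both, and their part in these values was not tested. Etv1, a transcription factor induced by FGF signaling, was at 398, 544 and 767 CPM against 144, 228 and 538 CPM. Its ranges overlapped, and it rose by 1.03 ± 0.24 (adjusted p = 0.0132).

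The rest of the 15 with the largest rises included Polr1d (1.26), a subunit of RNA polymerases I and III, Supt4a (1.11), an elongation factor, Hnrnpr (1.05), an RNA-binding protein, Eef1d (0.92), a translation elongation factor, Krtcap2 (1.12), a part of the glycosylation machinery, Ppib (0.89), a protein-folding enzyme, as well as Commd1 (1.31) and Commd3 (0.93), which act in endosomal sorting. Ninj2 (1.03), an adhesion protein, Dynll1 (1.01), a dynein light chain, Lap3 (1.00), an aminopeptidase, and Pantr1 (1.00), a noncoding RNA, completed them. Several rest on few UMIs in PF mice: Commd1 had 20 UMIs there against 375 in FGF1 mice, and Commd1, Commd3, Ninj2, Polr1d and Supt4a were each at 0 in PF mouse 27. The low-count filter asks for a minimum count in as many libraries as 1 group holds, so genes high in FGF1 mice alone could enter the test. The largest rises are therefore not independent of the filter. The same holds for falls of genes low in FGF1 mice, such as Mgll. Commd1 got through the filter in 7 of the 12 fits without a mouse and was called in 6 of them, which is no support for its rise.

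Mature oligodendrocyte genes were represented by 3 of the 15 tested, all higher, where 2.67% of all genes were called higher. Beside Il33 these were Car2 and Trf, which encodes transferrin, an iron carrier made by mature oligodendrocytes. Car2 was at 1655, 2257 and 2741 CPM in FGF1 mice and 579, 1094 and 2154 CPM in PF mice, and Trf was at 1870, 2434 and 3431 CPM and 874, 1477 and 2234 CPM. Both pairs of ranges overlapped, and both genes were higher in FGF1 in 6 of 6 batches. Car2 rose by 0.88 ± 0.24, given without a test since it separated cluster 11 from cluster 12. Trf rose by 0.72 ± 0.21 (adjusted p = 0.042 by edgeR's quasi-likelihood test). Each of the 2 genes was called in only 4 of the 12 fits without a mouse. The median log2 fold change of the mature list was 0.35, where all 1613 genes had -0.02.

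Cytoskeletal genes gave 4 higher and 1 lower among 19 tested, with a median of 0.25, where 6.63% of all genes were called and 2.67% were called higher. Tuba1a (0.85), an alpha tubulin, Stmn1 (0.69) and Stmn4 (0.57), which regulate microtubule assembly, and Mapt (0.63), the microtubule protein tau, rose. Marcks, which links actin to the membrane, fell by 1.60. All of these but Mapt had separated cluster 11 from cluster 9 in every mouse, and Stmn1 from cluster 12 as well. Their values are given without a test, and the count rests largely on genes that helped to set the cluster. Stmn1 was at 1570, 1972 and 2747 CPM in FGF1 mice and 948, 1305 and 1488 CPM in PF mice, without overlap. Among 9 heat shock genes 2 were called higher, Hsp90aa1 (0.51 ± 0.16) and the border gene Cryab (0.55 ± 0.15), a small heat shock protein that oligodendrocytes make in quantity. Gatm, which makes the creatine precursor, rose by 0.78 ± 0.15 (adjusted p = 0.00128), from 890, 1072 and 1476 CPM to 1408, 2072 and 2210 CPM.

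Mgll had the largest fall. It was at 33.7, 43.2 and 56.7 CPM in FGF1 mice and 108, 160 and 185 CPM in PF mice, with no overlap, and it fell by 1.94 ± 0.29. This fall is given without a test, since Mgll also separated cluster 11 from cluster 12. Ddit4, a stress-induced inhibitor of mTORC1 that glucocorticoids also induce, was at 45.2, 72.6 and 132 CPM against 135, 244 and 593 CPM. It fell by 1.80 ± 0.33, given without a test for the same reason. Ddit4 was the 1 member of 7 in the glucocorticoid list that was called. Ddr1, a collagen receptor of myelinating cells and a border gene, was at 207, 305 and 335 CPM in FGF1 mice and 410, 600 and 763 CPM in PF mice, without overlap, with a log2 fold change of -1.04 ± 0.17. Hist1h1c (-1.66), a linker histone, Mical3 (-1.56), Man1a (-1.50), a Golgi mannosidase, Mmd2 (-1.30), Scrg1 (-1.23) and Luzp2 (-1.13) were also among the 15 largest falls. Slc4a4 (-1.09), an astrocyte list gene and a border gene, was the 1 of 4 such genes called lower, and the other 3 had values below 0 without passing. The 4 had an unadjusted p below 0.05, and the list median was -0.54 against -0.02 for all genes. The part of astrocyte RNA in the falls within cluster 11 was not tested.

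Of 24 compact myelin genes tested, 1 was called higher (Cryab) and 3 lower, Mag and Nfasc among them, and the list median was -0.07. Over all genes tested, 2.67% were called higher and 3.97% lower. Cryab, Mag and Nfasc are border genes. Mag was at 1406, 1624 and 1910 CPM in FGF1 mice and 1974, 3272 and 4517 CPM in PF mice, with no overlap and a log2 fold change of -0.98 ± 0.15. Nfasc was at 372, 539 and 817 CPM against 698, 1288 and 1440 CPM, with overlap and a log2 fold change of -1.11 ± 0.20. Of the 5 given markers 0 passed, with 1 at an unadjusted p below 0.05, and the log2 fold changes were 0.16 ± 0.14 for Mal, -0.09 ± 0.13 for Cldn11, -0.17 ± 0.14 for Mog, 0.28 ± 0.15 for Opalin and -0.32 ± 0.15 for Tspan2. Of 12 sterol and fatty acid genes tested 2 were called lower and 0 higher, with a median of -0.28. Fasn, fatty acid synthase, was one of them (-0.97 ± 0.25) and was called in 10 of the 12 fits without a mouse. The other is a border gene, so the count rests on Fasn alone. Kcna1 (-0.60), a potassium channel gene of juxtaparanodes, and Cntn1 (-0.85), an adhesion partner at the paranode, fell as well, and the border genes Kcna2 (-0.87) and Ank3 (-0.88) had values below 0.

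Many of these lower genes had also separated cluster 11 from cluster 2. Of the 64 genes lower after FGF1, 21 were higher in cluster 11 than in cluster 2 in every mouse, Mag, Nfasc, Igsf8, Rap2a, Fam214a, Gm15440, Adamts4, Ddr1, Sirt2 and Ank3 among them, and 3 were lower in every mouse. Of the 43 genes higher after FGF1, 2 (Cryab and Josd2) were higher and 1 (S100a6) was lower in cluster 11 than in cluster 2. A lower level in the cells and a looser fit of FGF1 cells to the cluster cannot be told apart from these values.

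**Figure D4:**
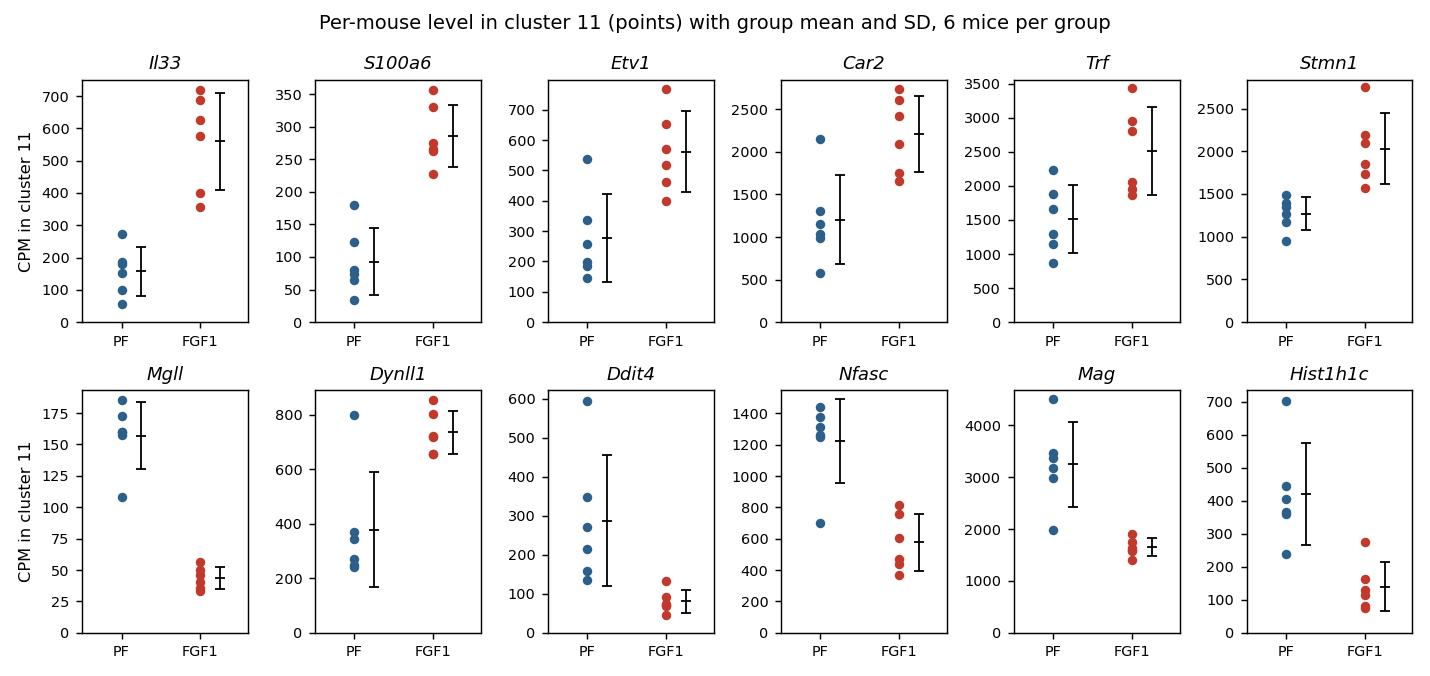
Level of 12 genes in cluster 11 in each mouse, in CPM on linear axes from 0, with the mean and SD of 6 mice beside the points. Il33, S100a6 and Stmn1 are higher, and Mgll, Ddit4 and Mag lower, in every FGF1 mouse than in any PF mouse, and the other 6 genes overlap.

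These and other lists are read against the 6.63% of all genes called in cluster 11, and with 4 to 8 members tested a single call exceeds that share. Among 8 lineage transcription regulators 0 passed, with 4 at an unadjusted p below 0.05, and 1 of 5 NFOL genes (Slc12a2) and 1 of 8 myelin-forming genes (Serinc5), both border genes, were called lower. The summed stage lists also moved with treatment. The 15 COP genes summed to 519, 691 and 792 CPM in cluster 11 of FGF1 mice and 775, 847 and 1055 CPM in that of PF mice, with FGF1 higher in 0 of 6 batches and ranges that overlapped, whereas in cluster 2 they summed to 703, 749 and 939 CPM against 456, 574 and 656 CPM, with FGF1 higher in 6 of 6 and no overlap. The 14 NFOL genes summed to 2056, 2387 and 2645 CPM against 2294, 2698 and 3627 CPM in cluster 11, with FGF1 higher in 0 of 6. The part of these stage genes in the other values of the cluster was not tested. Of 4 genes for FGF receptors and their feedback, Etv1 passed; the receptor gene most abundant here, Fgfr2, had a mean of 219 CPM in cluster 11 and 188 CPM in cluster 2. Of 6 genes reported for disease-associated oligodendrocytes 2 rose, Il33 and Trf. Of 82 ribosomal protein genes 1 rose (Rpl7), and 0 of 66 oxidative phosphorylation genes (5 at an unadjusted p below 0.05) and 0 of 12 mitochondrially encoded genes (0) passed.

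Cluster 2 of the same mice was tested in the same way. Of 7187 genes, 65 differed (0.904%), 40 higher (0.557%) and 25 lower (0.348%) in FGF1 mice. The libraries of cluster 2 held 289279 to 2222420 UMIs in PF mice and 132874 to 1159655 in FGF1 mice. This count was 38 without FGF1 mouse 7, 40 without FGF1 mouse 10, 34 without PF mouse 20 and 28 without PF mouse 25. Il33 rose there by 0.83 ± 0.17, from 182, 253 and 331 CPM to 360, 403 and 646 CPM, and the border gene S100a6 had a log2 fold change of 1.39 ± 0.17, with 583, 765 and 1218 CPM in FGF1 mice against 219, 292 and 387 CPM. Tanycyte and ependymal genes moved with FGF1 in cluster 2. Their 10 genes summed to 329, 523 and 812 CPM in FGF1 mice and 124, 216 and 333 CPM in PF mice, higher in FGF1 in 6 of 6 batches, and 2 of 7 tested rose (Crym and Dynlrb2). Their part in the cluster 2 values was not tested. Dynll1 (0.71) and Tuba1a (0.50) rose too. In the same cluster Car2 (0.05 ± 0.12), Trf (-0.13 ± 0.11) and Stmn1 (0.06 ± 0.11) did not pass.

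Whether an effect differed between the clusters was tested directly, with both libraries of each mouse in a single model. The FGF1 effect differed for 130 of 4438 genes (2.93%), 66 with a higher (1.49%) and 64 with a lower (1.44%) value in cluster 11. This split depended on the scaling: with scaling factors taken from genes of at least 100 CPM, an alternative chosen after the data were seen, 139 genes passed, 36 higher and 103 lower. The median of all genes was 0.05 in the first and -0.07 in the second. Both fits called 100 genes in the same direction, 36 higher and 64 lower. Without PF mouse 25 the first fit gave 75 genes.

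The rise of Il33 was larger in cluster 11 by 1.23 ± 0.23 on the log2 scale (adjusted p = 0.000132). Etv1 (0.99 ± 0.19, adjusted p = 0.000144) and Stmn1 (0.71 ± 0.13, adjusted p = 7.64e-05) also differed under both scalings. Trf (0.95 ± 0.23, adjusted p = 0.0412) passed under the first scaling but not under the second, while Car2 (0.95 ± 0.27, adjusted p = 0.0943) did not pass. For border genes the difference is again given without a test, and it was 0.26 ± 0.51 for S100a6, -1.33 ± 0.16 for Nfasc, -1.01 ± 0.17 for Ddr1, -0.68 ± 0.13 for Sirt2 and -0.63 ± 0.12 for Mag. The same holds for 34 of the 130 genes, which were higher or lower in cluster 11 in every mouse. In all, 18 of the 30 genes named for the largest changes in cluster 11 differed from cluster 2, and 15 of these did so under both scalings, the exceptions being Commd1, Polr1d and Krtcap2. The 30 were chosen for large changes in the same cluster 11 libraries, so these counts are no separate support. Among the 18, Fam214a, Gm15440, Igsf8 and Rap2a were such border genes. Gpr17, which rests on few UMIs as given above, was among the calls of both scalings, with a difference of -2.39 ± 0.60. It is given without a test, since its level was highest in cluster 11 of PF mice and the low-count filter could admit it through that group alone. DESeq2 returned no adjusted p for it. For Mgll (-1.14 ± 0.37, likewise given without a test) the difference was not among the calls.

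A sum over clusters 2, 11 and 12 does not use the borders between them, but it uses the same mice and its mix differed, since cluster 11 made up a median of 35.6% of these cells in FGF1 mice and 2.46% in PF mice. Here 190 of 8438 genes differed (2.25%), 95 higher (1.13%) and 95 lower (1.13%), and 4 of the 5 given markers rose: Mal (0.77 ± 0.16), Opalin (0.73 ± 0.17), Cldn11 (0.69 ± 0.15) and Mog (0.57 ± 0.15). Mal was at 2714, 4267 and 5398 CPM in FGF1 mice and 2198, 2326 and 3040 CPM in PF mice, which overlapped. Of 24 compact myelin genes 8 rose and 0 fell, with a list median of 0.40. In cluster 2 alone 0 of the 5 given markers and 0 of the 24 compact myelin genes passed in edgeR (3 and 7 at an unadjusted p below 0.05), with list medians of 0.26 and 0.04, and the given markers were higher in cluster 11 than in cluster 2 in every mouse. A changed level in the cells and a changed mix of clusters cannot be told apart in the sum. Mal and Cldn11 passed in each of the 12 fits without a mouse, and Opalin and Mog in 5. Astrocyte genes went down in the same sum, 4 of 10 (Atp1b2, Agt, Slc1a2 and Aldoc), and 2 of 8 tanycyte and ependymal genes rose (Crym and Dynlrb2). The part of either list in these values was not tested. Genes lower within cluster 11 had other values in the sum: Mag -0.02 ± 0.11, Nfasc 0.44 ± 0.14, and Ddr1 0.15 ± 0.11, none of which passed. Il33 (0.97 ± 0.17) and S100a6 (0.90 ± 0.12) rose in the sum and did so in each fit without a mouse. With the batch as a block, 348 genes passed in place of 190. The count of 190 was 98 without FGF1 mouse 7, 90 without FGF1 mouse 10, 89 without FGF1 mouse 21, 496 without FGF1 mouse 28, 94 without PF mouse 20, 322 without PF mouse 22, 79 without PF mouse 25, 126 without PF mouse 29 and 360 without PF mouse 35.

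Nuclei of separate mice gave a look at the same genes without the whole-cell clustering. On Day 1, 16 of 7192 genes differed between 3 FGF1 and 3 PF mice (0.222%), 12 higher (0.167%) and 4 lower (0.0556%). Il33 was at 249, 292 and 407 CPM in FGF1 mice and 34.8, 48.0 and 59.9 CPM in PF mice, without overlap, and rose by 2.74 ± 0.33 (adjusted p = 0.0079). S100a6 was at 71.4, 156 and 168 CPM against 13.6, 19.1 and 20.0 CPM and rose by 2.92 ± 0.43 (adjusted p = 0.015). Il33 passed in 5 of 6 fits without a mouse, the exception being the fit without PF mouse 1 (adjusted p = 0.0794), and S100a6 passed in 3 of 6. Mog fell by 1.56 ± 0.27 (adjusted p = 0.0358), from 270, 324 and 332 CPM to 80.5, 101 and 126 CPM, and passed in 1 of 6 such fits. Mal, at 10.1, 34.7 and 47.0 CPM against 89.8, 112 and 118 CPM, did not pass (-1.67 ± 0.40, adjusted p = 0.215). The count of 16 was 36 without FGF1 mouse 1, 6 without FGF1 mouse 2, 1 without FGF1 mouse 3, 0 without PF mouse 1, and 7 without PF mouse 2 or PF mouse 3.

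On Day 5, 10 of 8407 genes differed between 2 FGF1 and 2 PF mice (0.119%), all 10 lower. Neither Il33 (1.18 ± 0.33, adjusted p = 0.3) nor S100a6 (1.86 ± 0.58, adjusted p = 0.447) passed. Il33 was at 69.2 and 82.3 CPM in the FGF1 mice and 31.8 and 36.0 CPM in the PF mice, and the 2 groups did not overlap. A fit without a mouse leaves 1 mouse in a group here, so only effect sizes are given. The log2 fold change was 1.07 to 1.33 for Il33 and 1.15 to 2.17 for S100a6 over the 4 fits. Of the 107 genes called in cluster 11, 87 were tested in the Day 1 nuclei, where 46 had the same sign (52.9%, against 51.7% of all genes tested in both) and 2 passed, Il33 and S100a6. By direction, 26 of 34 genes higher in cluster 11 were above 0 in these nuclei, as were 66.3% of all genes tested in both, and 20 of 53 lower genes were below 0, as were 33.7%. On Day 5, 91 were tested and 42 had the same sign (46.2% against 42.8%). They were made up of 25 of 37 higher and 17 of 54 lower genes, where 47.2% of all genes tested in both were above 0 and 52.8% below. Of the 91, 0 passed, with 10 at an unadjusted p below 0.05 in edgeR. The nuclei were poor in myelin RNA, with Mal at 10.1 to 144 CPM, and the summed level of 12 neuron genes was 16994 to 26264 CPM in them, far above the 288 to 1268 CPM of cluster 11. The part of that neuron RNA in the nuclear values was not tested.

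**Figure D5:**
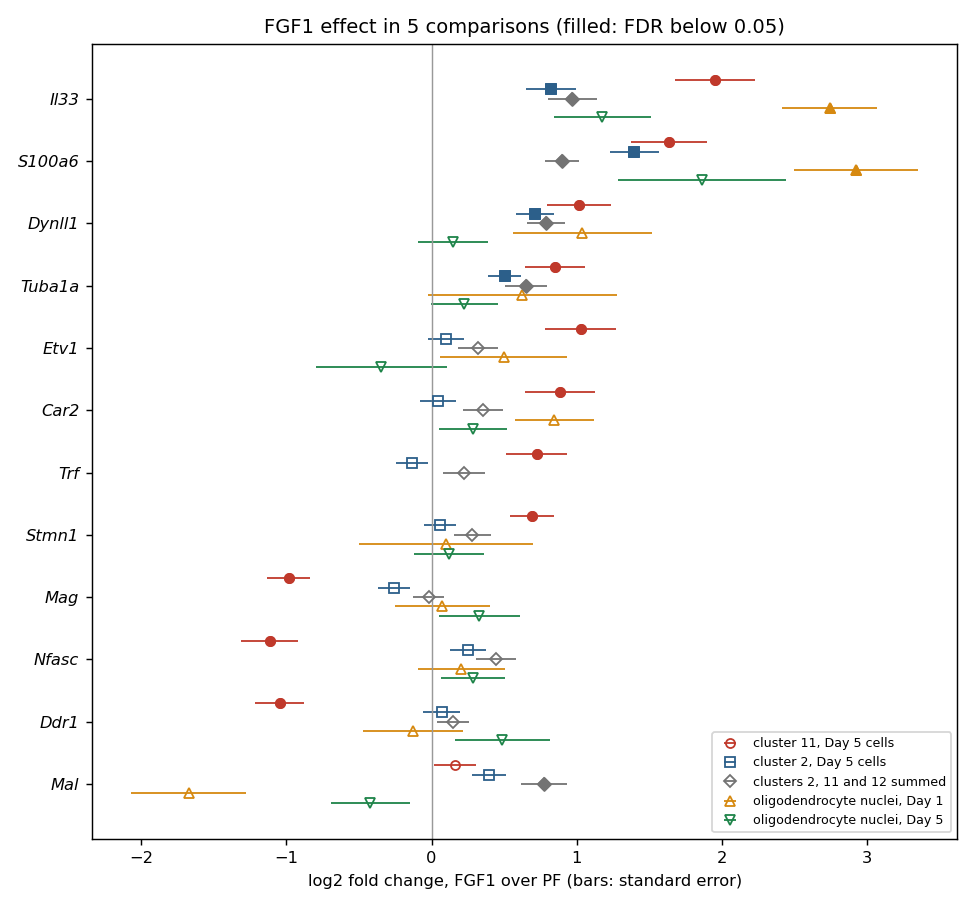
Log2 fold change of FGF1 over PF with its standard error for 12 genes in 5 comparisons, with filled symbols for an adjusted p below 0.05, which is no test for the border genes S100a6, Mag, Nfasc and Ddr1 in clusters 11 and 2. The same holds for Car2, Stmn1, Etv1, Trf and Tuba1a in cluster 11. Il33 and S100a6 lie to the right of 0 in all 5 comparisons, and Mag, Nfasc and Ddr1 lie far to the left in cluster 11 and near 0 or to the right in the sum over clusters.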

How the data were processed

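Per the study's methods, the authors dissociated the hypothalamus, made 10x 3' v2 libraries, and aligned and counted reads with Cell Ranger 1.2 on mouse build GRCm38, including introns for nuclei. They removed doublets called with Scrublet from the whole cells, neurons, and clusters dominated by 1 sample, and clustered the cells with Seurat. The authors deposited raw UMI counts per gene and cell, and with each cell its mouse, batch, cluster number and percent of mitochondrial and ribosomal UMIs. Clusters carry numbers without names, and what a batch was is not given in the sources used here. The authors' normalized values were not used.

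Counts were summed per mouse and cluster. Libraries with at least 10 cells were kept. FGF1 and PF were compared with edgeR 4.0.16 (R 4.3.3): filterByExpr, TMM scaling, glmQLFit and glmQLFTest, without covariates, with Benjamini-Hochberg adjustment and a threshold of 0.05. The difference of the FGF1 effect between clusters 11 and 2 was the interaction term of a model of both clusters with the mouse as a block. Each standard error was derived from the test as the absolute log2 fold change divided by the square root of the F statistic. CPM values used TMM factors from genes with a mean of at least 100 CPM over all libraries; the tests kept factors from the genes that passed the filter, and the other factors were an alternative chosen after the data were seen. Differences between clusters within a mouse were taken in log2 CPM with a prior count of 2. The scripts were tested on simulated counts. Depths are given with the cells above. Alternatives were no filter on low counts, other scalings, DESeq2 1.42.0, the batch as a block, other cell minimums, thinning to 800 UMIs per cell, cells within the 20% limit, and leaving out each mouse.

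The cluster, the gene lists and the tests were chosen with earlier results of these data known. Named genes were the 25 leading genes in either direction against cluster 2 and 10 against clusters 9 and 12, the 15 largest rises and the 15 largest falls among genes called in cluster 11, the 5 given markers and the most abundant members of each list; Josd2, Rpl7, Slc12a2, Hsp90aa1, Gatm, Ddr1, Cntn1, Kcna1 and other genes named for a count were chosen after their values were seen. For Day 1 nuclei, replicate numbers are shared between the groups, but the deviations of same-numbered samples had correlations of -0.13, -0.24 and 0.19, so the numbers were not used as pairs. Results of some genes are not reported here. Reads shared between near-identical genes, such as ribosomal protein genes and their copies, could not be assigned with certainty.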

Additional observations from a re-analysis of the deposited data

Results flagged for a closer look

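In cluster 11, 5 of 74 groups of 6 mice held a mouse apart from the others of its group by Dixon's test, where chance gives about 1 in 20. These were Hnrnpr in PF mouse 20 (172 CPM), Dynll1 in PF mouse 35 (798 CPM), Mgll in PF mouse 20 (108 CPM), Igsf8 in PF mouse 35 (179 CPM) and Gm15440 in FGF1 mouse 28 (253 CPM).

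The FGF1 effect differed between clusters 11 and 2 for 130 genes by the interaction term in edgeR. Among the genes named for the largest changes in cluster 11, the difference in log2 fold change was positive for Il33 (1.23), Commd1 (1.16), Polr1d (1.09), Krtcap2 (1.03), Supt4a (1.205), Etv1 (0.99), Lap3 (1.00) and Pantr1 (1.17). Commd1, Polr1d and Krtcap2 did not pass with scaling factors from genes of at least 100 CPM. It was negative for Fam214a (-1.62), Hist1h1c (-0.99), Mical3 (-1.33), Man1a (-1.97), Rap2a (-1.40), Igsf8 (-0.91), Mmd2 (-1.37), Gm15440 (-1.01) and Luzp2 (-1.18). Several of the negative genes, Fam214a, Rap2a, Igsf8 and Gm15440, had also set cluster 11 apart from cluster 2. All these genes were chosen for large changes in the same cluster 11 libraries, so their differences are no separate support.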

How the results depend on the processing

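Without a filter on low counts, the genes called between FGF1 and PF numbered 199 in cluster 11, 157 in cluster 2, 66 in Day 1 nuclei and 69 in Day 5 nuclei, and the difference between clusters 11 and 2 was called for 271. The same setting turned the sign of Cldn11 (0.21) and Mog (0.14) in cluster 11, neither of which passed the test in the main analysis. DESeq2 called 103 genes in cluster 2 and 83 for the difference. Thinning each cell to 800 UMIs left 44 genes in cluster 11, 72 for the difference and 33 of 50 leading genes against cluster 2. The batch as a block, which pairs 1 FGF1 with 1 PF mouse, gave 348 genes in the sum over clusters 2, 11 and 12, 89 in cluster 11, 89 in cluster 2 and 120 for the difference. The replicate block in Day 1 nuclei left 5 of 16 calls, and the pairing it assumes rests on a shared number alone. The whole-cell groups and the Day 5 nuclei share no replicate numbers to pair by. With clusters 2, 11 and 12 as the denominator, the FGF1 mean share of cluster 11 was 11.8 times that of PF, against 7.18 for all cells. Leaving out 1 mouse gave 46 to 164 genes in cluster 11, 28 to 84 in cluster 2, 75 to 183 for the difference, 79 to 496 in the sum, 0 to 36 in Day 1 nuclei, 23 to 129 in Day 5 nuclei, and a share ratio of 5.66 to 10.1. Of 710 values of 35 named genes under alternatives, 641 kept their direction and side of the threshold. The causes of these changes were not tested, and the 28725 to 93668 UMIs of PF mice limit the low genes.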
